A study of Homo sapiens with 8 samples.

Results

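The 9 transcription factors TCF7, LEF1, GATA3, BCL11B, TOX, TOX2, SATB1, ARID5B and ZBTB7B, which act as thymocytes commit to the T-cell lineage or choose among its branches, were followed in T-cell acute lymphoblastic leukaemia (T-ALL) cells. They were chosen by symbol, each symbol was matched to 1 gene identifier, and together they are 9 of the 63677 genes counted. The identifiers are ENSG00000081059 (TCF7), ENSG00000138795 (LEF1), ENSG00000107485 (GATA3), ENSG00000127152 (BCL11B), ENSG00000198846 (TOX), ENSG00000124191 (TOX2), ENSG00000182568 (SATB1), ENSG00000150347 (ARID5B) and ENSG00000160685 (ZBTB7B). RNA was sequenced from DND-41 and MOLT-4, established human T-ALL cell lines grown in culture, 8 h after addition of 100 nM ACBI-1 or of its solvent DMSO alone. Each of the 4 groups (DND-41 with DMSO, DND-41 with ACBI-1, MOLT-4 with DMSO and MOLT-4 with ACBI-1) held 2 libraries, and no other allele or agent is named for any of them. ACBI-1 is a degrader that brings the bromodomain proteins SMARCA2, SMARCA4 and PBRM1 to the VHL ubiquitin ligase. These proteins are parts of the BAF and PBAF complexes, which move nucleosomes at promoters and enhancers. The comparison asks how the RNA of the factors differed with ACBI-1 in each line, and whether the lines differed in that response. In bulk RNA, fewer cells of a kind and less RNA per cell cannot be told apart.

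In the thymus, NOTCH signalling turns on TCF7 and GATA3 in early progenitors, and BCL11B follows as cells give up other fates. TCF7 and LEF1 are sister HMG-box proteins that bind the same short DNA motif and act with beta-catenin or with TLE repressors. TOX and TOX2 are another pair of HMG-box proteins, SATB1 organises chromatin loops, ARID5B is a DNA-binding partner of the demethylase PHF2, and ZBTB7B directs thymocytes to the CD4 helper fate.

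Upstream windows of TCF7, GATA3, BCL11B, TOX2 and SATB1, members that fell in MOLT-4, are shown because promoters and enhancers are where the targeted complexes work. They were taken from the RefSeq table of gene starts on GRCh38.p14, which held 20 windows of the 8 members other than TOX. Each line below is the 250 bases before 1 annotated start of a gene, read 5′ to 3′ on the gene's strand, with motif matches in capitals. Where a gene had several starts, the window shown is the one with the most matches among those that overlap no exon of a coding transcript in GENCODE 29. The motifs searched on both strands were TGTGGT for RUNX factors, AGATAA for the family of GATA3, GGAAGT for ETS factors and CTTTGA for the TCF/LEF family, none of which contains another.
GATA3, chr10:8050986-8051235, + strand: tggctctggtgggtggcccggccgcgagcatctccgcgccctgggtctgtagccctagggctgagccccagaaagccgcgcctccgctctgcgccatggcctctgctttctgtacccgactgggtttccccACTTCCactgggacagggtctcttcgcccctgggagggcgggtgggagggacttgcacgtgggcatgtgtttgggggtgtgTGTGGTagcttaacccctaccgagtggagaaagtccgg
SATB1, chr3:18445593-18445842, - strand: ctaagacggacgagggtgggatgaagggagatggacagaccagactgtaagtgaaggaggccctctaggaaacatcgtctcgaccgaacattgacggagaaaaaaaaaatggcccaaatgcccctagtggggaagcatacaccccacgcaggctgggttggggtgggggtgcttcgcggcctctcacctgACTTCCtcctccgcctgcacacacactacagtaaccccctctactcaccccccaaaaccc
BCL11B, chr14:99272198-99272447, - strand: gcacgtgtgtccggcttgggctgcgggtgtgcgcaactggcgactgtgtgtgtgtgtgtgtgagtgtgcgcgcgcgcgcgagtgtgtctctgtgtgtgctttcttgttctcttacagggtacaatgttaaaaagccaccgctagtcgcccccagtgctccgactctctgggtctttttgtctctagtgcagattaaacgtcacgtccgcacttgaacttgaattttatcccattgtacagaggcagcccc
TCF7, chr5:134123368-134123617, + strand: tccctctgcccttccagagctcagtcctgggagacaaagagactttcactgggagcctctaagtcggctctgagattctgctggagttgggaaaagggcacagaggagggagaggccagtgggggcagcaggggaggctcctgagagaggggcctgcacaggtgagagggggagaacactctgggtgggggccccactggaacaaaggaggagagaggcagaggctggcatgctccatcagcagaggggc
TOX2, chr20:43915880-43916129, + strand: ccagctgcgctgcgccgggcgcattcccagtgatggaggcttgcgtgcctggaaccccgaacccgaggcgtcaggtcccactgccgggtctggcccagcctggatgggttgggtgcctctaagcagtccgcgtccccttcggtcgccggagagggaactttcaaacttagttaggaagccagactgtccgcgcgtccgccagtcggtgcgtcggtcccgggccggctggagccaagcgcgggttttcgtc
The GATA3 window held 1 ETS match, on the opposite strand as ACTTCC, and 1 RUNX match. In the SATB1 window shown there was 1 ETS match, also as ACTTCC. The BCL11B, TCF7 and TOX2 windows shown held none of the 4 motifs. The other TCF7 window, which overlaps an exon, held 2 ETS matches. GATA3 had 6 windows and SATB1 had 4, and those not shown held 0 or 1 match each. Over all 20 member windows, 6 held the ETS motif, 3 the RUNX motif, 1 the TCF/LEF motif and 0 the GATA motif. The 2 ZBTB7B windows overlap and each held 1 ETS match, so the same site may be counted in both. Among all 35116 windows of this length in the table, 19.5% held the ETS motif, 10.98% the RUNX motif, 11.2% the TCF/LEF motif and 9.17% the GATA motif. A match describes letters in a window and was not tested as a binding site.

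Library totals ran from 19860759 to 20239888 counts, and the Pearson r of log2 CPM (counts scaled to a common library size) between the 2 libraries of a group ran from 0.9953 to 0.9975. All 8 T-cell markers (CD3D, CD3E, CD3G, CD247, CD2, CD5, CD7 and LCK) had a mean of at least 1 CPM in 3 of the groups and 7 of 8 did in DND-41 with ACBI-1, and the B-lineage genes MS4A1, PAX5 and CD22 were at 0 in every library. Both replicate 2 libraries of MOLT-4 stood apart in stromal matrix RNA. COL1A1, a fibroblast collagen, had 1115 counts in DMSO replicate 2 against 42 in replicate 1, and 207 counts in ACBI-1 replicate 2 against 0 in replicate 1. The summed level of the 5 stromal and epithelial markers was 4.46 and 70.9 CPM in the MOLT-4 DMSO libraries, 0.741 and 14.8 CPM with ACBI-1, 50.2 to 52.6 CPM in DND-41 with DMSO and 8.09 to 11.1 CPM there with ACBI-1. In DND-41 nearly all of it was PDGFRB, a growth factor receptor gene, at 50.1 and 52.4 CPM with DMSO and at 8.04 and 10.9 CPM with ACBI-1. EPCAM was at 0 in every library. The results for MOLT-4 were therefore also computed without both replicate 2 libraries, in 1 fit with the 4 DND-41 libraries that lends the single MOLT-4 libraries its spread. The share of mitochondrially encoded counts was 19.0% and 14.4% in the MOLT-4 DMSO libraries and 21.3% and 24.6% with ACBI-1, against 11.8% to 15.5% in DND-41. Its part in the results was not tested beyond a fit without those genes.

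With solvent alone, the lines differed most in TCF7, ARID5B and TOX2. TCF7 stood at 93.8 and 79.4 CPM in the DND-41 libraries and at 2845 and 2825 CPM in MOLT-4, a 32.7-fold difference (log2 5.03 ± 0.09 SE, edgeR adjusted p = 8.21e-19). ARID5B had 35 and 32 counts in DND-41 and 953 and 956 in MOLT-4, a CPM ratio of 30.4 (exact 95% interval 23.8 to 39.4). TOX2 had 3 and 2 counts in DND-41 against 313 and 252 in MOLT-4, a CPM ratio of 120 (51.3 to 373). These intervals cover counting error only. Of the 8 members tested, all were called higher in MOLT-4, where 63.8% of all genes tested were called, 33.2% higher and 30.7% lower in that line. TOX2 passed the filter on low counts only through MOLT-4, where it is high, so its direction in that count was fixed by the filter. The other 5 differed less, from a log2 difference of 0.28 ± 0.07 for LEF1 to 1.14 ± 0.07 for TOX, with GATA3 at 0.39 ± 0.07, BCL11B at 0.82 ± 0.06 and SATB1 at 0.99 ± 0.06 between these. The LEF1 difference did not pass when counts were scaled by library size alone (0.18, adjusted p = 0.0698).

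Levels between genes were compared as CPM per kilobase of annotated exon. The length used was 10063 bases for TCF7 and 5361 for LEF1, and the lengths of the transcripts present were not measured. Orders, ranks and shares on this scale depend on these lengths, which the SD does not cover. In DND-41 with DMSO, LEF1 led at 234, ahead of GATA3 at 58.6 and TOX at 41.5. BCL11B at 8.70, TCF7 at 8.61 ± 1.01 (SD, n = 2) and SATB1 at 7.78 followed close together, within the spread of TCF7. ARID5B was at 0.175 and TOX2 at 0.0371. In MOLT-4 with DMSO, LEF1 at 284 ± 25.9 and TCF7 at 282 were alike within their spread on this scale. Not divided by length, TCF7 was at a mean of 2835 CPM there and LEF1 at 1525 CPM. TOX at 91.6 and GATA3 at 76.6 CPM per kilobase followed. SATB1 at 15.5 ± 0.745 and BCL11B at 15.4 ± 0.337 were again alike within their spread, as were ARID5B at 5.33 ± 0.196 and TOX2 at 4.49 ± 0.858, whose means lay within 1 SD. Among the genes at 1 CPM or more, LEF1 ranked 104 of 12141 in DND-41 and 83 of 12480 in MOLT-4. TCF7 ranked 4504 of 12141 in DND-41 and 85 of 12480 in MOLT-4.

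**Figure D1:**
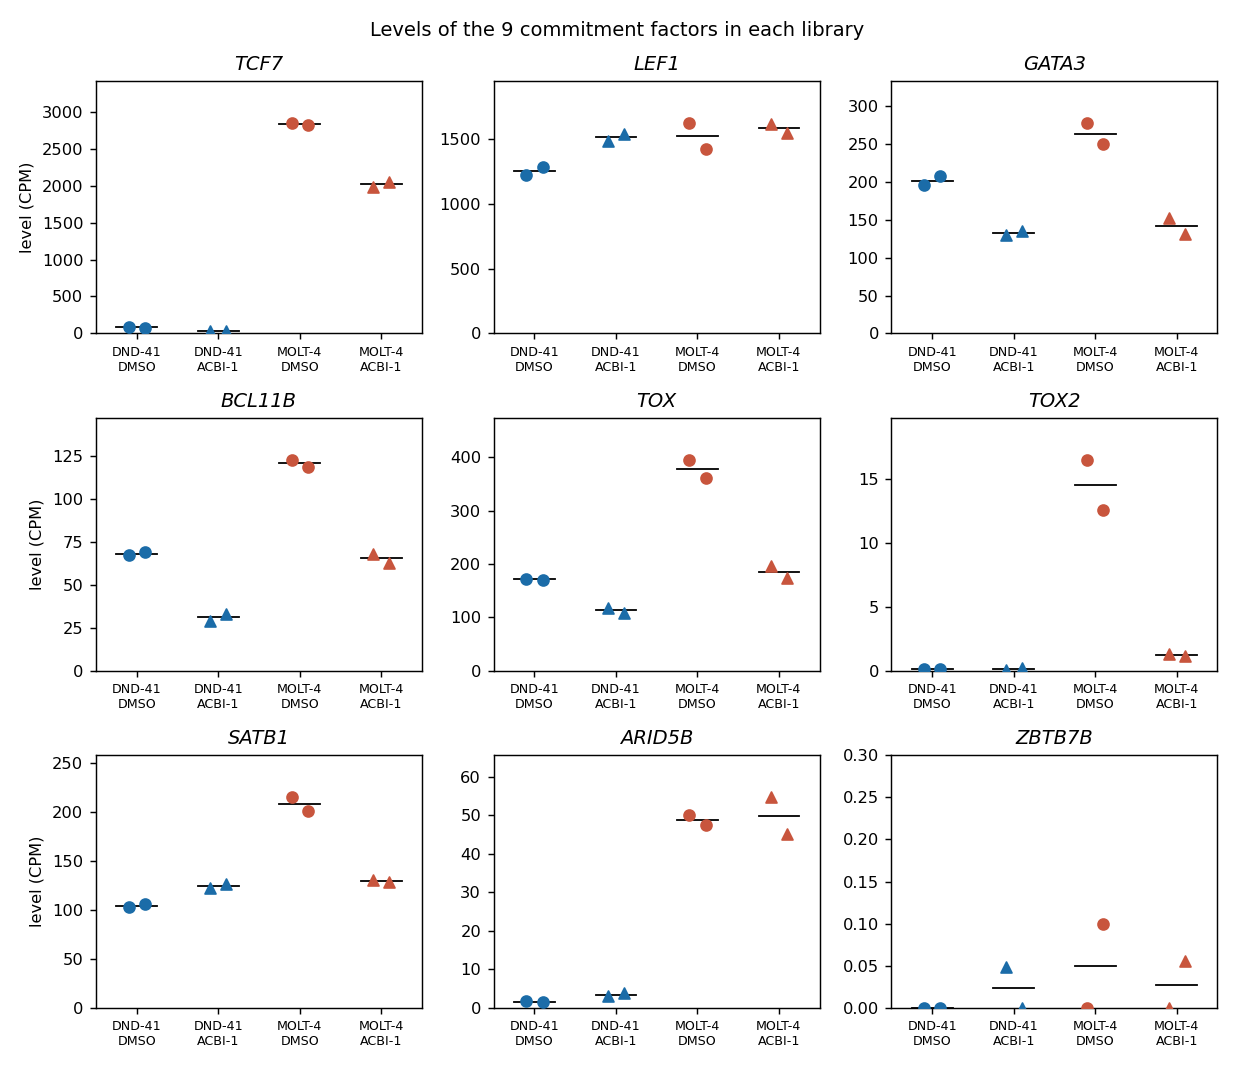
Level of each of the 9 factors in CPM (linear axis from 0, a different scale in each panel), with 1 point per library, circles for DMSO, triangles for ACBI-1 and a bar at the mean of 2 libraries. TCF7 lies near 2800 CPM in MOLT-4 with DMSO and under 100 CPM in DND-41. TOX2 is near the floor in both DND-41 groups and at 1.27 and 1.10 CPM in MOLT-4 with ACBI-1, and the ZBTB7B panel spans 0 to 2 counts.

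In DND-41 with ACBI-1, 4 of the 7 members tested fell (TCF7, BCL11B, GATA3 and TOX) and 3 rose (ARID5B, LEF1 and SATB1). Every one of the 7 passed the threshold, an adjusted p of 0.05, against a background of 43.2% of all genes tested in this line, 20.0% called higher and 23.2% lower. The median log2 fold change of the 7 was −0.58, and that of all genes tested was 0.01. Without DMSO replicate 1 only 1 member, ARID5B, was called higher, while 4 were still called lower. TOX2 and ZBTB7B had too few counts to be tested there. In MOLT-4, 6 of the 8 members tested fell (TOX2, TOX, GATA3, BCL11B, SATB1 and TCF7), 0 rose and 2 did not pass (LEF1 and ARID5B), against a background of 45.1% called, 20.7% higher and 24.4% lower. Their median was −0.79, against 0.00 for all genes tested. GATA3, BCL11B, TCF7 and TOX were called lower in both lines. The count of 6 lower and 0 higher in MOLT-4 was the same without both replicate 2 libraries.

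TCF7 fell in both lines and by more in DND-41. Its level there went from 93.8 and 79.4 CPM with DMSO to 39.9 and 34.5 CPM with ACBI-1, and the groups did not overlap (−1.21 ± 0.09, adjusted p = 6.07e-08). In MOLT-4 it went from 2845 and 2825 CPM to 1982 and 2055 CPM (−0.49 ± 0.08, adjusted p = 6.63e-05). Both treated libraries lay below both controls in each line, yet even with ACBI-1 MOLT-4 held many times the TCF7 RNA of untreated DND-41. The difference in response, MOLT-4 minus DND-41, was 0.73 ± 0.12 on the log2 scale (adjusted p = 2.74e-04). For the members as a whole that difference passed for 5 of 8 tested, 1 higher and 4 lower, against a background of 13.3% of all genes tested, 7.18% higher and 6.17% lower.

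LEF1, the partner of TCF7 at the same motif, was not called lower in either line. In DND-41 it rose from 1224 and 1282 CPM to 1488 and 1536 CPM, with no overlap (0.29 ± 0.07, adjusted p = 0.00260). Without DMSO replicate 1 the call was lost (0.24, adjusted p = 0.135). In MOLT-4 LEF1 was at 1623 and 1427 CPM with DMSO and at 1620 and 1550 CPM with ACBI-1. The MOLT-4 groups overlapped (0.05 ± 0.08, adjusted p = 0.639), and the sign turned to −0.025 when counts were scaled by library size alone and to −0.015 without both replicate 2 libraries. The difference in LEF1 response between lines missed the threshold (−0.22 ± 0.10, adjusted p = 0.190) and passed it without MOLT-4 DMSO replicate 2 (−0.33, adjusted p = 0.0383).

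Within the family, TCF7 held a smaller share in both treated libraries of each line than in both controls. Of the summed CPM per kilobase of TCF7, LEF1, TCF7L1 and TCF7L2, TCF7 took 3.84% and 3.12% in DND-41 with DMSO and 1.37% and 1.15% with ACBI-1. In MOLT-4 it took 48.0% and 51.0% with DMSO and 39.0% and 40.8% with ACBI-1. The ratio of LEF1 to TCF7 went from 24.5 and 30.3 to 70.1 and 83.5 in DND-41, and from 1.07 and 0.948 to 1.53 and 1.42 in MOLT-4. No treated library overlapped a control of its own line in that ratio, which was not tested. The size of the shares and of the ratio depends on the exon lengths used, whereas the fold change of the ratio between treatments does not. The summed level was 243 and 253 CPM per kilobase in DND-41 with DMSO and 289 and 298 with ACBI-1, nearly all of it LEF1, and in MOLT-4 it was 590 and 550 with DMSO and 505 and 500 with ACBI-1. TCF7L2, the family member best known from gut epithelium, was a small part of the sum but was called higher in DND-41 (0.46 ± 0.07, adjusted p = 1.57e-04) and in MOLT-4 (0.72 ± 0.08, adjusted p = 4.26e-07).

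**Figure D2:**
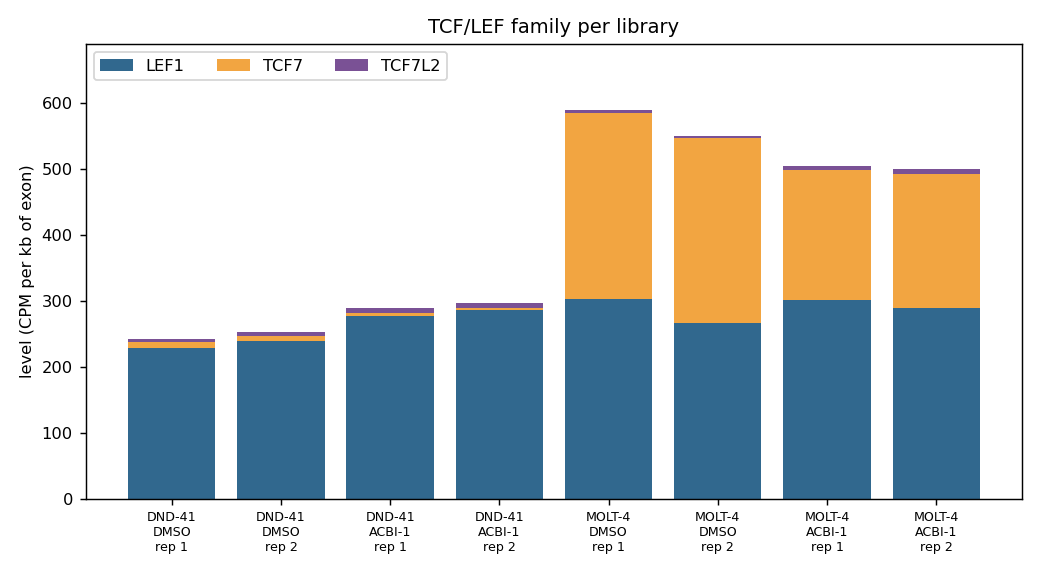
Stacked level of LEF1, TCF7 and TCF7L2 in each of the 8 libraries, in CPM per kilobase of exon. LEF1 is nearly the whole column in DND-41, whereas TCF7 is between 39.0% and 51.0% of the family's sum in MOLT-4 and smaller in both treated libraries than in both controls.

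LEF1-AS1, the antisense transcript at the LEF1 start, moved the same way as LEF1 in DND-41. It stood at 8.92 and 9.23 CPM with DMSO and at 14.4 and 11.3 CPM with ACBI-1 (0.52 ± 0.13, adjusted p = 0.00464). In MOLT-4 its levels were 4.88 and 4.97 CPM with DMSO and 4.82 and 6.17 CPM with ACBI-1, and the groups overlapped (0.15 ± 0.16, adjusted p = 0.494). The libraries were strand-specific, but the strand setting of the counting is not given in the sources used here, so reads of LEF1 and LEF1-AS1 may not be fully separated. GATA3-AS1 had too few counts to be tested in either line.

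GATA3, a zinc-finger factor needed from the earliest T-cell precursors onward, fell in both lines. In DND-41 its level was 195 and 208 CPM with DMSO and 130 and 136 CPM with ACBI-1 (−0.59 ± 0.06, adjusted p = 1.96e-06). In MOLT-4 it went from 277 and 249 CPM to 152 and 131 CPM (−0.90 ± 0.07, adjusted p = 1.65e-09). The groups did not overlap in either line, and the treated levels of the lines lay closer together than their controls. The difference in response was −0.30 ± 0.10 and missed the threshold (adjusted p = 0.0565). It passed in 8 of the alternative fits, for example with no filter on low counts (−0.31, adjusted p = 0.00726) and without MOLT-4 ACBI-1 replicate 1 (−0.40, adjusted p = 0.0264), with a range over all of them from 0.00445 to 0.331.

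BCL11B, the zinc-finger factor that seals T-cell identity, fell in both lines too. In DND-41 it went from 67.5 and 69.1 CPM to 29.1 and 32.9 CPM (−1.12 ± 0.07, adjusted p = 1.90e-08). In MOLT-4 it went from 123 and 119 CPM to 68.2 and 62.9 CPM (−0.89 ± 0.06, adjusted p = 2.17e-10), with no overlap between groups in either line. MOLT-4 with ACBI-1 stood close to DND-41 with DMSO. The difference in response was 0.26 ± 0.09 and missed the threshold (adjusted p = 0.0881), which it passed without DND-41 ACBI-1 replicate 2 (0.35, adjusted p = 0.0192) and with the replicate number as a block (0.26, adjusted p = 0.0430).

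TOX, which is needed for CD4 thymocyte development, was lower with ACBI-1 in each line and more so in MOLT-4. The DND-41 controls stood at 172 and 171 CPM and the treated libraries at 118 and 109 CPM (−0.58 ± 0.06, adjusted p = 2.71e-06). The MOLT-4 controls stood at 395 and 362 CPM and the treated libraries at 197 and 174 CPM (−1.03 ± 0.06, adjusted p = 1.15e-10). All treated libraries were below the controls of their line, and the difference between lines passed (−0.44 ± 0.09, adjusted p = 0.00365). Its relative TOX2 showed the largest fold change of the members tested in MOLT-4. In MOLT-4 it went from 16.4 and 12.5 CPM, or 313 and 252 counts, to 1.27 and 1.10 CPM, or 24 and 20 counts. That is a 12.1-fold fall (8.93 to 16.9 by counting error, log2 −3.60 ± 0.19, adjusted p = 1.24e-11), rank 62 among the falls of 14239 genes tested. The higher control was MOLT-4 DMSO replicate 1, the library with little stromal RNA, and without both replicate 2 libraries the log2 value was −3.70.

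In DND-41 TOX2 had 3 and 2 counts with DMSO and 1 and 4 with ACBI-1, too few for a response to be measured there. Its difference between lines (−3.57 ± 1.06, adjusted p = 0.0310) rests on these counts. It lost the call without DND-41 ACBI-1 replicate 2 (−2.38, adjusted p = 0.514), without DND-41 DMSO replicate 1 (−3.85, 0.0537) or 2 (−3.32, 0.0799), and without MOLT-4 ACBI-1 replicate 1 (−3.67, 0.0505) or 2 (−3.47, 0.0581). Without both MOLT-4 replicate 2 libraries it was −3.68 with an adjusted p of 0.0621. Of the CPM per kilobase summed over TOX and TOX2 in MOLT-4, TOX2 took 5.07% and 4.25% with DMSO and 0.822% and 0.805% with ACBI-1.

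SATB1 was the member that went in opposite directions. In DND-41 it rose from 103 and 106 CPM to 122 and 126 CPM (0.26 ± 0.06, adjusted p = 0.00214), a call that was lost without DMSO replicate 1 (0.24, adjusted p = 0.0775). In MOLT-4 it fell from 215 and 200 CPM to 130 and 128 CPM (−0.69 ± 0.05, adjusted p = 3.29e-09). With solvent the lines differed by about 1 log2 unit, whereas with ACBI-1 the DND-41 and MOLT-4 libraries lay within 122 to 130 CPM. The groups did not overlap in either line, and the difference in response was −0.94 ± 0.08 (adjusted p = 1.74e-07).

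ARID5B, part of the oncogenic TAL1 circuit in some T-ALL, rose in DND-41 from a very low level. It had 35 and 32 counts with DMSO and 63 and 81 with ACBI-1, or 1.66 and 1.55 against 3.01 and 3.70 CPM (1.08 ± 0.23, adjusted p = 0.00171). In MOLT-4 it was at 50.0 and 47.5 CPM with DMSO and at 54.7 and 45.2 CPM with ACBI-1, and the treated libraries lay on either side of the controls (0.03 ± 0.08, adjusted p = 0.784). That MOLT-4 value turned to −0.046 when scaled by library size alone and to −0.11 without ACBI-1 replicate 1. The responses differed by −1.03 ± 0.23 (adjusted p = 0.00533). ZBTB7B, the helper-fate factor also called ThPOK, had 0 to 2 counts in every library and was tested nowhere.

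**Figure D3:**
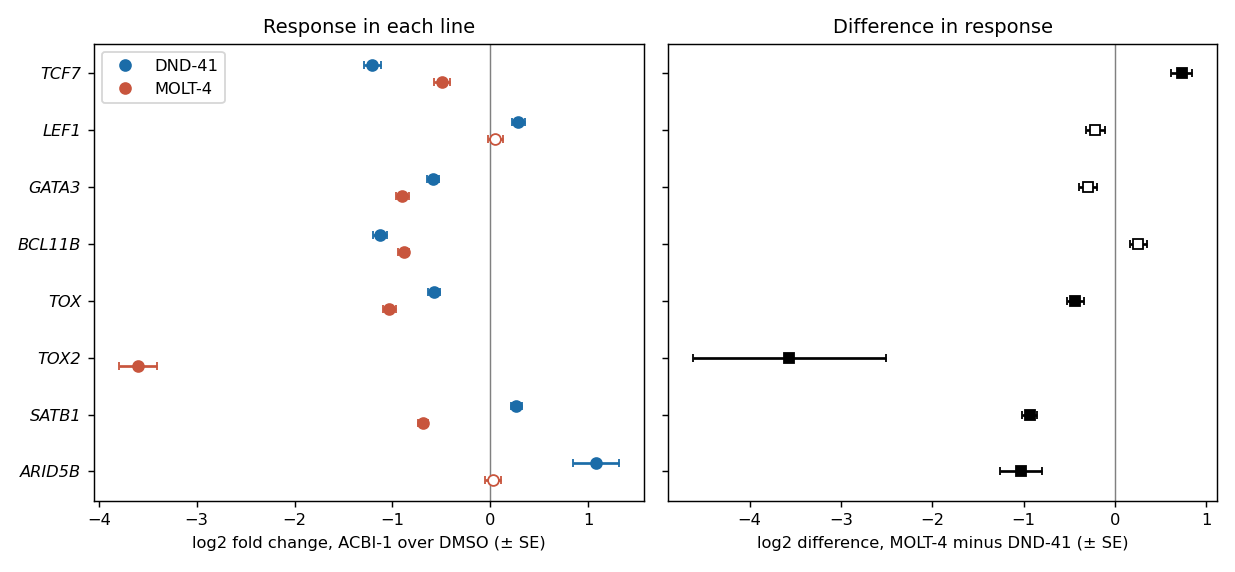
Log2 fold change of ACBI-1 over DMSO (± SE) in each line for the 8 factors tested, and at right its difference, MOLT-4 minus DND-41, with filled symbols where the adjusted p passed 0.05. TCF7, GATA3, BCL11B and TOX are left of 0 in both lines, SATB1 is on opposite sides, and the difference has its widest error for TOX2, which had at most 4 counts per DND-41 library.

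In the authors' deposited tables, made with DESeq2, 31.3% of the genes with an adjusted p in DND-41 and 27.5% of those in MOLT-4 passed 0.05. All 7 members with an adjusted p passed in the DND-41 table and 6 of 8 in the MOLT-4 table, the exceptions being LEF1 and ARID5B. In the authors' deposited table for MOLT-4, the log2 fold change carries the sign opposite to the counts, as 0 of the 6425 edgeR calls share its sign, whereas all 6056 do in the DND-41 table. For example, the authors' deposited value for TOX2 in MOLT-4 is 3.61 although its counts fell with ACBI-1.

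Close relatives of the factors were also read, from a list of 11 paralogs. Of all genes tested, 20.0% were called higher and 23.2% lower in DND-41, and 20.7% and 24.4% in MOLT-4. These shares are the background for the counts of this and the following lists, which were not tested against them. In DND-41, 7 of the 11 were tested, of which 2 rose and 3 fell (median −0.25). In MOLT-4, 7 were tested, of which 1 rose and 5 fell (median −0.37). ARID5A, an RNA-binding relative of ARID5B, was at 50.9 ± 1.33 CPM (SD, n = 2) in DND-41 with DMSO and at 9.42 ± 0.340 CPM with ACBI-1 (−2.42 ± 0.08). The same gene in MOLT-4 was at 44.8 ± 1.67 CPM with DMSO and at 13.99 ± 1.48 CPM with ACBI-1 (−1.68 ± 0.08). ARID5A therefore fell in the line where ARID5B rose, and its difference between lines passed (0.76 ± 0.13, adjusted p = 3.78e-04). ZBTB7A, a repressor related to ZBTB7B, fell in both lines (−0.67 ± 0.07 and −0.34 ± 0.06). ZBTB7C fell from 14.8 ± 0.180 to 2.14 ± 0.403 CPM in MOLT-4 (−2.80 ± 0.15). In DND-41 it fell from 48 to 9 counts, summed over 2 libraries each (−2.41 ± 0.55). It passed the filter on low counts in DND-41 only through DMSO, so its direction in that count was fixed by the filter. TOX4 rose slightly in DND-41 (0.16 ± 0.06, adjusted p = 0.0371).

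The list of cofactors, mostly partners of the factors, showed no common direction. It also held AXIN2 and NKD1, which are counted here although they are not partners. AXIN2 did not pass in DND-41 (−0.04 ± 0.16, edgeR adjusted p = 0.856) and fell in MOLT-4 (−1.25 ± 0.20). NKD1 was tested in neither line. Of 13 cofactors, 12 were tested in DND-41, where 3 rose, 4 fell and 5 did not pass (median −0.04), and 11 were tested in MOLT-4, where 5 rose and 6 fell (median −0.24). BCL9L, an adaptor between beta-catenin and its coactivators, fell in both lines (−1.08 ± 0.09 in DND-41 and −1.12 ± 0.08 in MOLT-4), while its relative BCL9 rose (0.34 ± 0.06 and 0.17 ± 0.06). PYGO2, the next protein in that chain, rose in both (0.34 ± 0.06 and 0.18 ± 0.05). TLE3, a corepressor of TCF factors, fell in DND-41 (134 ± 1.16 against 91.4 ± 3.07 CPM, −0.53 ± 0.06) and in MOLT-4 (176 ± 6.43 against 96.6 ± 5.28 CPM, −0.87 ± 0.06). PHF2, the demethylase partner of ARID5B, rose in MOLT-4 (0.25 ± 0.05).

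Genes of the T-cell programme that these factors are known to serve mostly fell. The rises in DND-41 were CD3D, CD3E, CD3G, RAG1 (0.53 ± 0.06) and IL7R (0.18 ± 0.06), and in MOLT-4 only CD3G rose. CD247, another receptor chain, fell in both lines (−0.44 ± 0.06 in DND-41 and −1.35 ± 0.06 in MOLT-4). Of the 20 in the list, 19 were tested in DND-41, where 5 rose, 13 fell and 1 did not pass (median −0.45). In MOLT-4 all 20 were tested, and 1 rose, 15 fell and 4 did not pass (median −0.93). ZAP70, a kinase of the T-cell receptor, fell in both lines. The DND-41 level of ZAP70 was 339 ± 9.48 CPM with DMSO and 178 ± 1.11 CPM with ACBI-1 (−0.92 ± 0.06), and the MOLT-4 level was 632 ± 24.6 against 272 ± 3.65 CPM (−1.22 ± 0.06). CD6 and CD5, paired surface receptors of T cells, fell in MOLT-4 (−2.87 ± 0.09 and −1.40 ± 0.06). In DND-41 CD6 had 35 counts with DMSO and 6 with ACBI-1 and passed the filter only through DMSO. Its direction in the DND-41 count was therefore fixed by the filter. CD3G rose in both lines, with 306 ± 5.67 against 947 ± 33.9 CPM in DND-41 and 169 ± 26.5 against 365 ± 1.46 CPM in MOLT-4. CD3E, its partner chain, rose in DND-41 (0.65 ± 0.07) and did not pass in MOLT-4 (−0.06 ± 0.08, adjusted p = 0.542). The difference between lines passed for 10 of the 20, 1 higher and 9 lower in MOLT-4. Of all genes tested, 7.18% were higher and 6.17% lower in that difference.

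Of the tested progenitor genes and natural killer or innate genes, more fell than rose in each line. Only 2 of the 14 progenitor genes were tested in DND-41, too few for a direction of that list there. Whether BCL11B or TCF7 restrains these genes in these cells was not tested. Of 14 progenitor genes, 2 were tested in DND-41, with 1 fall (HHEX, −2.28 ± 0.26, from 3.69 ± 0.0203 to 0.746 ± 0.108 CPM), and 8 in MOLT-4, with 1 rise and 7 falls (median −1.67). The rise was ERG, an ETS factor of stem and early T cells (0.92 ± 0.05), and the falls included NFE2 (−1.99 ± 0.12) and MYCN (−2.25 ± 0.17). Of 15 natural killer (NK) and innate genes, 8 were tested in DND-41, where 1 rose and 5 fell (median −0.89), and 6 in MOLT-4, where 0 rose and 5 fell (median −1.42). NKG7, a granule protein of killer cells, fell from 27.2 ± 1.21 to 7.16 ± 1.19 CPM in DND-41 (−1.91 ± 0.11), and FCER1G rose there from a low level (0.71 ± 0.25, adjusted p = 0.0349). ZBTB16, the innate-like T-cell factor PLZF, fell in MOLT-4 from 7.42 ± 0.253 to 0.808 ± 0.130 CPM (−3.19 ± 0.22). IL2RB, a receptor chain of interleukins 2 and 15, fell in DND-41 (−3.46 ± 0.23). In MOLT-4 it had 54 counts with DMSO and 0 with ACBI-1. That is at least 17.0-fold lower against a floor of 3 counts over both libraries of the group (0.0810 CPM). IL2RB and the progenitor gene FLT3 (47 counts with DMSO, 6 with ACBI-1) passed the filter in MOLT-4 only through DMSO. Their direction in the MOLT-4 counts was therefore fixed by the filter.

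Genes of the CD4 and CD8 choice and of helper cells showed no common direction, with 1 rise and 3 falls among 7 tested in DND-41 and 1 rise and 4 falls among 9 tested in MOLT-4 (medians −0.41 and 0.05). CBFB, the partner subunit of RUNX proteins, fell in both (−0.81 ± 0.06 and −1.22 ± 0.07), and RUNX3 fell in DND-41 (−0.41 ± 0.06). CD8A fell in MOLT-4 from 13.8 ± 0.727 to 4.48 ± 0.201 CPM, whereas CD4 rose from 9.39 ± 0.00429 to 12.3 ± 1.53 CPM (0.38 ± 0.12, adjusted p = 0.0123). PTGDR2, a prostaglandin receptor of type 2 helper cells, rose in DND-41 (0.47 ± 0.15, adjusted p = 0.0223) and fell in MOLT-4 to 5 and 0 counts. In MOLT-4 PTGDR2 passed the filter only through DMSO, so its direction in that count was fixed by the filter.

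**Figure D4:**
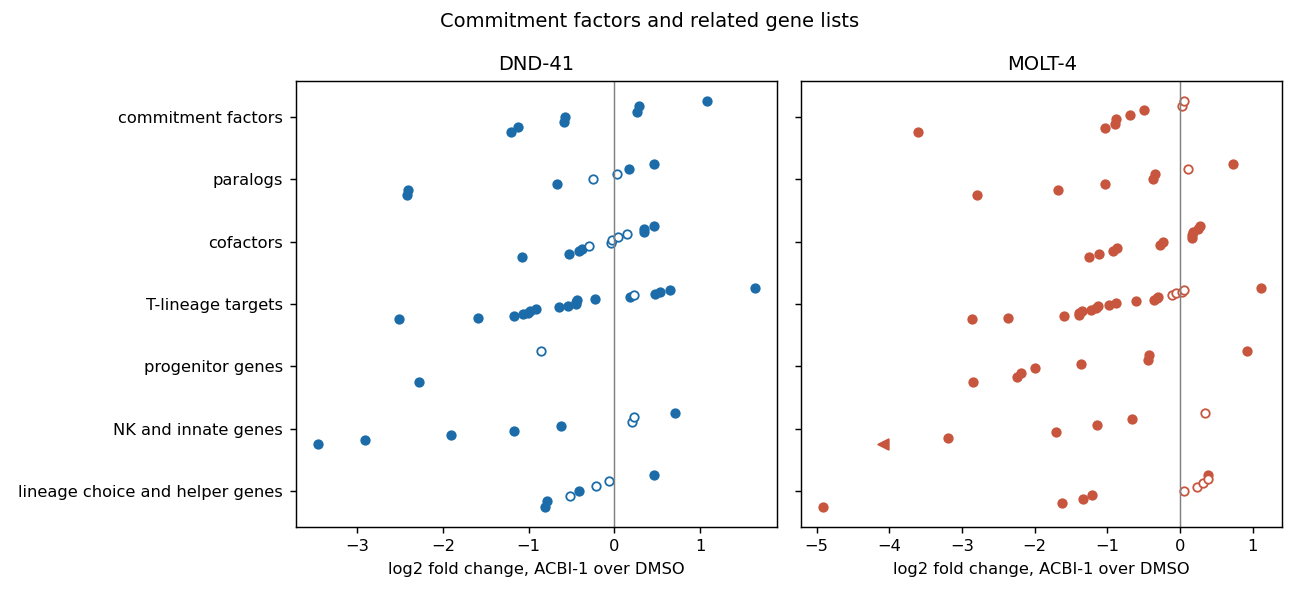
Log2 fold change of ACBI-1 over DMSO for every tested gene of the factor set and of 6 related lists, 1 point per gene, filled where the adjusted p passed 0.05, with the axis range differing between lines. Most filled points of the T-lineage and NK lists lie left of 0 in both lines, as do those of the progenitor list in MOLT-4. Only 1 progenitor point is filled in DND-41. The direction of CD6 in DND-41 and of IL2RB and FLT3 in MOLT-4 was fixed by the filter on low counts. The triangle marks IL2RB in MOLT-4 at its lower bound of 17.0-fold, since both treated libraries had 0 counts.

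Genes whose level ran most like that of a member were found by the Pearson r of log2 CPM over the 8 libraries, among 9417 genes with a mean level of at least 5 CPM. The points share cell line and treatment, so r is given as a description. GATA3 was most like MAFK (0.995) and the corepressor TLE3 (0.995), BCL11B like LAPTM5 (0.998) and TMEM106A (0.996), and TOX like FTL and CIZ1 (0.995 each). TCF7 was most like UMODL1 (0.9995) and TRIM24 (0.999), and ARID5B like ERAP2 and SREBF1 (0.998 each). LEF1 had no match as close, with PRDM8 at 0.982 and MORC3 at 0.964, and SATB1 reached 0.977 with TMEM164 and 0.970 with IP6K1.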

How the data were processed

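RNA of 8 libraries was compared, 2 for each of 4 groups taken from the labels, and 0 count columns were left unmapped. The authors' deposited counts are raw whole numbers, 1 per gene and library. STAR 2.5.2a, featureCounts, DESeq2 1.12.4 and hg19 are named in the submitters' processing notes. The annotation, strand setting and filters are not stated in those notes, the labels or the headers. Log2 fold changes, p-values and, as score columns, a base mean and a test statistic stand in the authors' comparison tables, per the file headers.

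Counts were tested with edgeR 4.0.16 in R 4.3.3 (filterByExpr at a minimum count of 10, TMM, quasi-likelihood F test, Benjamini-Hochberg adjustment over all genes tested, threshold 0.05). Each line was fitted alone, and the difference in response and the solvent levels over all 8 libraries. The SE of a fold change was derived from it and F, as |log2 fold change| / √F. CPM used effective library sizes from all 8 libraries. Exon lengths came from GENCODE 29, on another build than the counts, matched by identifier. In log2 CPM for correlations, 0.5 CPM was added. Where a symbol had several identifiers, the one with most reads was taken. Nothing in the labels says that replicates were separate cultures, so p-values measure the spread between these libraries. The 2 libraries of a group are few.

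The members and lists were chosen with earlier results of these data known. Named were all members, the 2 rises and the 2 falls of lowest adjusted p in each list and line, transcripts whose symbol is a member's followed by a hyphen, and the 2 most alike genes per member tested in both lines. CD3E in MOLT-4, PTGDR2 in MOLT-4, CD6 in DND-41 and the difference for ARID5A are further values of genes so named. CD3D, RAG1, IL7R, CD247, FLT3, AXIN2 and NKD1 were named outside this rule, to qualify the counts of their lists. A result that this rule takes is not reported here. The fit was tested on simulated counts with up to 200 changed genes. False calls were 1.99% of calls for DND-41, 8.16% for MOLT-4, 7.50% for the difference and 9.87% for the solvent comparison, on 13800, 13980, 14980 and 14960 genes. Alternatives were other size factors, library size alone, a replicate block, other low-count filters, DESeq2 1.42.0, 1 fit for all libraries, each library left out in turn and, chosen after seeing the data, no mitochondrially encoded genes and no MOLT-4 replicate 2 libraries.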

Additional observations from a re-analysis of the deposited data

Results flagged for a closer look

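The response to ACBI-1 differed between the lines, by the test of line and treatment together, for 5 of the 8 members tested. As MOLT-4 minus DND-41 on the log2 scale, the difference was 0.73 for TCF7, which fell further in DND-41. It was −0.94 for SATB1, which rose in DND-41 and fell in MOLT-4, and −0.44 for TOX, which fell further in MOLT-4. It was −1.03 for ARID5B, which rose from a low level in DND-41. For TOX2 it was −3.57, with at most 4 counts in any DND-41 library, and this call ended when single libraries were left out.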

How the results depend on the processing

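Of the 31 member results, 22 kept their direction and their side of the threshold under every alternative run, and 419 of 444 alternative values did so. In MOLT-4, LEF1 turned to −0.025 with library size alone, to −0.032 without DMSO replicate 2 and to −0.015 without both replicate 2 libraries. ARID5B turned to −0.046 with library size alone and ran from −0.11 (without ACBI-1 replicate 1) to 0.17 (without ACBI-1 replicate 2). None of these values passed the threshold. The LEF1 value with single MOLT-4 libraries left out ran from −0.032 to 0.15. In DND-41, 2807 genes were called higher, against 1856 with DESeq2 and 1745 to 3044 when single libraries were left out, with the lowest counts without DMSO replicate 1 (1745) and DMSO replicate 2 (1817). Members called higher there numbered 3, and 1 to 3 when single libraries were left out. In MOLT-4, 2948 genes were called higher and 3477 lower, against 1781 higher with library size alone, 1962 higher with DESeq2, and 1357 higher and 2232 lower when both replicate 2 libraries were dropped and the rest fitted jointly with DND-41; all 8 libraries in 1 fit gave 2843 and 3354. For the difference between lines, 1112 genes were higher and 956 lower, against 499 higher with library size alone and 440 higher and 504 lower without both MOLT-4 replicate 2 libraries. Leaving out single libraries gave 699 to 1207 higher (699 without MOLT-4 DMSO replicate 2, 730 without DND-41 DMSO replicate 2) and 621 to 989 lower (621 without MOLT-4 ACBI-1 replicate 1, 634 without DND-41 DMSO replicate 1). The members called higher in the difference numbered 1, and 1 to 2 when single libraries were left out. Library size alone moved the median of all genes by −0.12 for the difference and by −0.10 for the solvent comparison, and the share of calls that were higher from 53.8% to 26.1% for the difference and from 45.9% to 31.2% in MOLT-4. With the replicate number as a block, members called higher in the difference numbered 2, since BCL11B passed, GATA3 passed among the lower ones, and the genes called higher and lower numbered 3297 and 3579 in DND-41, 3217 and 3703 in MOLT-4, and 1398 and 1181 between lines. The deviations of same-numbered libraries correlated at 0.0725 in DND-41 and 0.211 in MOLT-4, with 2 pairs in each line. The labels name no shared source for a number, so the block was not part of the design, although both MOLT-4 replicate 2 libraries share stromal transcripts. Where a lone library was left in a group, it was assumed to vary like the others. The cause of these shifts was not tested.

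ZBTB7B in both lines and TOX2 in DND-41, at no more than 4 counts per library, could not be measured for a response at this depth. In simulated counts, a log2 change of 0.5 was recovered for 64.6% of changed genes for DND-41, 55.1% for MOLT-4 and 44.0% for the difference. Far fewer genes were changed there than were called in the data, and recovery was not given by level or for smaller changes. It therefore does not say how often changes like that of LEF1, or the GATA3 and BCL11B differences, are missed. A p above the threshold does not show that values were equal.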
